A study of Mus musculus with 57 samples.

Results

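The genes described here encode the motors that move cargo along microtubules: the kinesins with their light chains, the cytoplasmic dyneins, and dynactin, the complex that dynein needs for processive transport. Members were genes whose mouse symbol begins with Kif and a digit, or names a kinesin light chain (Klc1 to Klc4), a subunit of cytoplasmic dynein (Dync1, Dync2, Dynll, Dynlrb, Dynlt1 and Dynlt3 symbols) or a subunit of dynactin (Dctn1 to Dctn6, Actr1a and Actr1b). A member also had to reach a normalised read count of 35 in at least 3 libraries. Of 71 genes with such a symbol, 69 met the level, among 21944 genes that met it in a table of 45337. Of the 69 members, 39 reached it in every library. Kif1bp, the KIF1-binding protein, matched by symbol but is not a motor. Dynlt1-ps1 and Kif4-ps are pseudogenes, and Kif16bos is an antisense gene. The Dynlt1 copies are near-identical, so the count of each single copy is uncertain.

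Kinesins walk towards the plus ends of microtubules, which in an axon point away from the cell body, and so carry vesicles, mitochondria and cytoskeletal proteins outward. Cytoplasmic dynein walks the other way and returns endosomes, signalling complexes and worn organelles to the cell body, with dynactin as its partner. Corticospinal neurons project from deep cortical layers to the spinal cord and have some of the longest axons in the body. Mutations of KIF5A and of the dynactin subunit DCTN1 are known causes of inherited motor neuron disease.

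The study, whose title concerns gain-of-function variants of CREB3 and amyotrophic lateral sclerosis, measured total RNA of mouse brain by RNA-seq in 57 libraries from 32 animals. The libraries fall into 16 groups of 2 cell types, 2 genotypes and 4 ages. The genotypes were Sod1G86R, a mouse line that carries an ALS-type mutant Sod1 transgene, and wild type. Corticospinal neurons (CSN) of Sod1G86R mice gave 3, 4, 4 and 2 libraries at 30, 60, 90 and 105 days, and those of wild-type mice gave 4 at each age. Control cells, which the labels describe no further, are held in 3, 3, 4 and 4 Sod1G86R libraries and in 4, 2, 4 and 4 wild-type libraries at these ages. The ages stand as plain numbers in the labels and were read as days. Both cell types were measured in 25 of the animals. The labels do not give strain, sex or how the cells were isolated.

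The libraries held 22.2 to 64.2 M reads. Sod1 averaged 118702 ± 22748 (SD, n = 13) in Sod1G86R CSN against 3230 ± 951 (SD, n = 16) in wild-type CSN, and 95962 ± 32270 (SD, n = 14) against 3018 ± 790 (SD, n = 14) in control cells. No Sod1G86R library overlapped a wild-type one, so every library matched its labelled genotype. The labelled cell types matched their markers as well: in wild type, 9 of 10 deep-layer markers were higher in CSN than in control cells and all 6 upper-layer markers were lower. The control libraries held a varying mixture. Their summed oligodendrocyte marker level ran from 105798 to 1982860 in wild type, against 882.36 to 283283 in CSN, and their summed pan-neuronal level from 69005.7 to 390250, against 238708 to 391935 in CSN. Microglial, astrocytic, oligodendrocyte precursor and endothelial markers were lower in CSN for 6 of 6, 6 of 6, 3 of 3 and 5 of 5 genes. No marker in these lists was at 0 in all libraries. The share of reads from mitochondrially encoded genes was 7.51% ± 2.39 (SD, n = 16) in wild-type CSN, 4.90% ± 1.77 (SD, n = 13) in Sod1G86R CSN and 1.18% ± 0.45 (SD, n = 14) in wild-type control cells.

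The first question was how the motor set of CSN differs from that of the control cells. In wild type the neuronal kinesin heavy chain Kif5a, the light chain Klc2, the vesicle motor Kif1a, the dynein heavy chain Dync1h1 and the large dynactin subunit Dctn1 were 2.2-fold to 4.7-fold higher in CSN. Several small dynein light chains and the dynactin subunit Dctn6 were lower. By limma on log2(value + 34.6), 28 of 69 members were higher and 12 lower at a Benjamini-Hochberg adjusted p under 0.05. Of all 22032 genes tested, 26.8% were higher and 29.5% lower (56.3% called). The members' median log2 fold change was 0.15, against -0.03 over all genes. The share of members called, 58.0%, was therefore near that of all genes. In these bulk libraries, fewer cells of a type and less RNA per cell cannot be told apart. The markers of glia and of other neurons given above moved with the cell type, and their part in the members' differences was not tested.

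**Figure D1:**
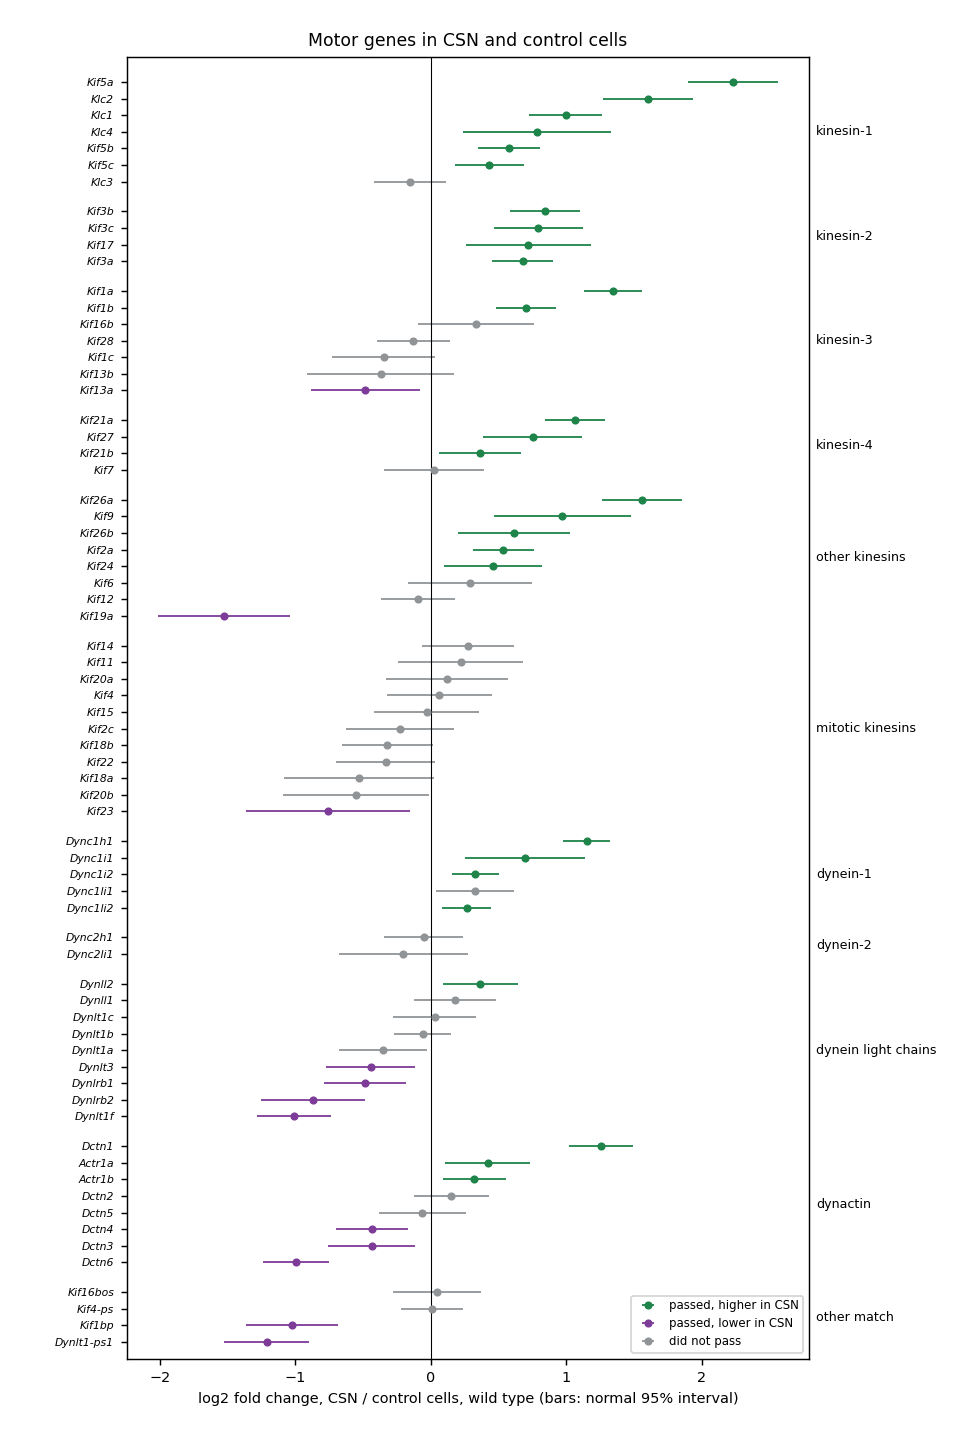
Log2 fold change of each of the 69 members in wild-type CSN (n = 16) against wild-type control cells (n = 14), grouped by role. Points are limma estimates on log2(value + 34.6), bars are normal 95% intervals, and colour marks members that passed as higher, passed as lower or did not pass. All 4 kinesin-2 genes and 6 of 7 kinesin-1 genes lie to the right of 0 as passed, whereas 4 of 9 dynein light chains lie to the left.

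Kinesin-1, the conventional kinesin, pairs heavy chains (Kif5a, Kif5b, Kif5c) with cargo-binding light chains (Klc1 to Klc4), and 6 of its 7 members were higher in wild-type CSN with none lower. Kif5a (ENSMUSG00000074657, GRCm38 chr10:127225696-127263348, minus strand) ranged from 9821 through a median of 13479 to 26145 in wild-type CSN. In wild-type control cells Kif5a ranged from 1562 through 2856 to 5402. Every CSN library lay above every control library. The fold change was 2.23 on the log2 scale (SE 0.169, adjusted p = 6.61e-16, limma), or 4.70-fold, and CSN exceeded the control cells in 25 of the 25 animals with both libraries. Its widely expressed relative Kif5b was higher by 0.58 (SE 0.116, adjusted p = 3.33e-05, limma) and Kif5c, the third heavy chain, by 0.43 (SE 0.131, adjusted p = 0.00412, limma). Kif5b averaged 8315 ± 2463 (SD, n = 16) in CSN and 5259 ± 1685 (SD, n = 14) in control cells. Kif5c averaged 17933 ± 5099 (SD, n = 16) and 13553 ± 3989 (SD, n = 14). The 2 cell types overlapped for both of these heavy chains.

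Among the light chains, Klc2 ranged from 267.2 through 577.6 to 989.0 in wild-type CSN and from 55.3 through 162.8 to 285.6 in control cells of that genotype. Only the extremes of these ranges overlapped, and the log2 fold change was 1.61 (SE 0.170, adjusted p = 2.11e-11, limma). Klc1, the most abundant light chain, averaged 15645 ± 2532 (SD, n = 16) in CSN and 8018 ± 2456 (SD, n = 14) in control cells, a log2 fold change of 0.996 (adjusted p = 2.58e-08, limma). Klc4 was higher by 0.79 (adjusted p = 0.0143, limma), a call that was lost without the wild-type control library of replicate 2 at 60 days (adjusted p = 0.0606). Klc1 and Klc2 were higher in CSN in all 25 animals.

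**Figure D2:**
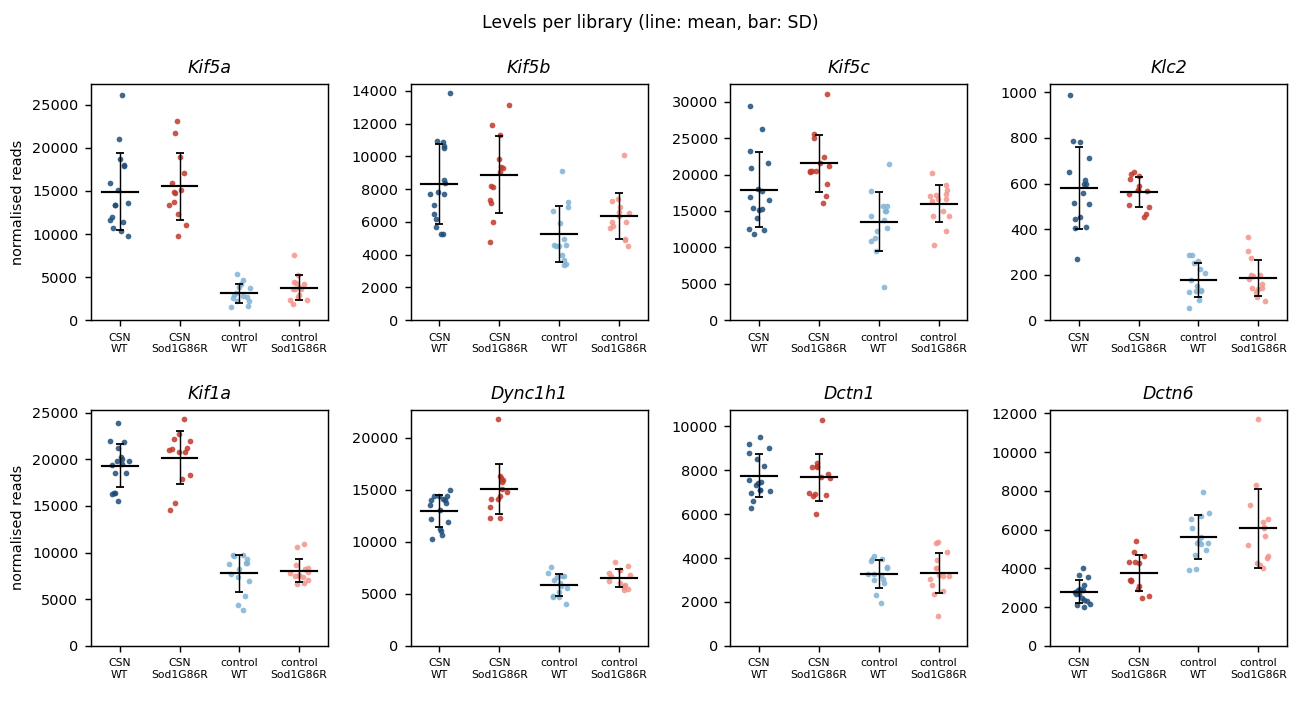
Normalised read count of Kif5a, Kif5b, Kif5c, Klc2, Kif1a, Dync1h1, Dctn1 and Dctn6 in each of the 57 libraries, by cell type and genotype. Points are libraries, horizontal lines are means and vertical bars are SD. For Kif5a, Kif1a, Dync1h1 and Dctn1 the CSN and control libraries separate within each genotype, while Dctn6 is lower in CSN.

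The composition of the kinesin-1 heavy chains also differed between the cell types. Reads per kilobase of exon were used here because levels of different genes compare only per length. Kif5a made up 37.5% ± 3.4 (SD, n = 16) of the Kif5 reads per kilobase in wild-type CSN and 34.8% ± 3.8 (SD, n = 13) in Sod1G86R CSN. In control cells it made up 14.97% ± 4.0 (SD, n = 14) in wild type and 14.87% ± 4.67 (SD, n = 14) in Sod1G86R. The lowest CSN library, at 28.9%, lay above the highest control library, at 28.3%. Kif5c was the most abundant heavy chain in each of the 4 groups by mean, at 44.2% ± 2.8 (SD, n = 16) in CSN and 62.5% ± 8.7 (SD, n = 14) in control cells of wild type. Kif5b made up 18.3% and 22.5% in those groups. These shares are a description, without a test.

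**Figure D3:**
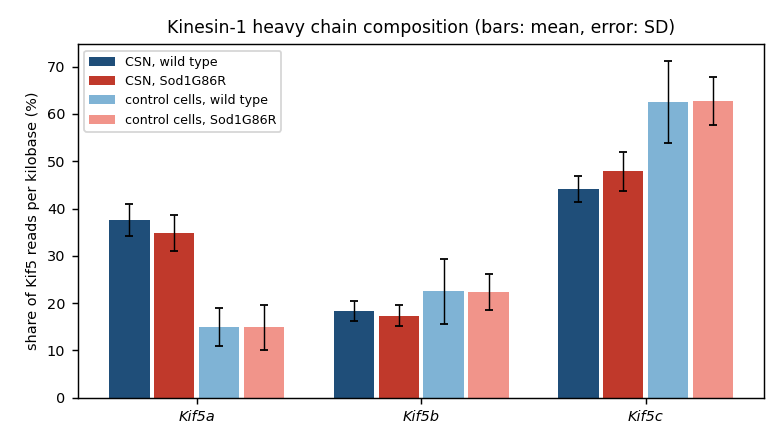
Share of the Kif5 reads per kilobase of exon (percent) taken by Kif5a, Kif5b and Kif5c in each cell type and genotype. Bars are means over libraries and error bars are SD. Kif5a takes 34.8% to 37.5% in CSN and 14.87% to 14.97% in control cells.

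Kinesin-2 motors, heterotrimers of Kif3a with Kif3b or Kif3c and the homodimer Kif17, carry cargo in axons, dendrites and cilia. All 4 members were higher in wild-type CSN. Kif3a averaged 7332 ± 1118 (SD, n = 16) in CSN and 4580 ± 1310 (SD, n = 14) in control cells, a log2 fold change of 0.68 (adjusted p = 2.12e-06, limma). Kif3b and Kif3c were higher by 0.85 and 0.79, and Kif17 by 0.72. Kif3a and Kif3b were higher in CSN in all 25 animals. Kif3c exons overlap those of a gene on the other strand over 35.3% of their length, and the kit does not mark strand, so part of its reads may belong to that gene.

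Kinesin-3 holds the fast motors of synaptic vesicle precursors, of which Kif1a was 1 of 2 members that were higher among 7, with 1 lower. Kif1a (GRCm38 chr1:93015464-93101951, minus strand) ranged from 15500 through 19656 to 23871 in wild-type CSN and from 3815 through 8503 to 9768 in control cells of that genotype. The groups did not overlap, and the log2 fold change was 1.35 (SE 0.109, adjusted p = 5.16e-15, limma). Kif1b, which also moves mitochondria, was higher by 0.70 (SE 0.112, adjusted p = 5.27e-07, limma), with 21100 in CSN and 13418 in control cells on average. Kif13a was lower by 0.48 on the log2 scale in the wild-type CSN (log2 fold change -0.48, adjusted p = 0.0432, limma), a call lost in 16 of the 57 fits that each left out 1 library. Over the 57 libraries, Kif1a was the gene whose log2 level followed that of Kif5a most closely (Pearson r = 0.95), followed by Cabp7 (0.93) and Sept3 (0.92). The libraries share cell type and depth, and these correlations are a description.

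Of the 4 kinesin-4 members, Kif21a, a motor that restrains microtubule growth, was higher by 1.06 (SE 0.113, adjusted p = 2.36e-11, limma). It averaged 10742 in CSN and 5552 in control cells and was higher in CSN in 25 of 25 animals. Its relative Kif21b was higher by 0.37 and the little-studied Kif27 by 0.75. The 8 other kinesins had 5 higher and 1 lower. Kif26a, an atypical kinesin without motor activity, ranged from 107.8 through 141.1 to 320.8 in wild-type CSN and from 1.67 through 37.2 to 64.1 in control cells of that genotype. These ranges did not overlap, although the level is low, and the pseudocount makes the fitted log2 fold change of 1.56 (SE 0.152, adjusted p = 2.01e-12, limma) smaller than the ratio of the means. Kif19a, a depolymerase of motile cilia, was lower by a log2 fold change of -1.53 (adjusted p = 9.05e-07, limma), at 13.98 in CSN and 107.1 in control cells on average. Of the 11 mitotic kinesins 1 was lower and none higher. That gene was Kif23, at 34.3 in CSN and 77.6 in control cells on average.

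Cytoplasmic dynein-1 is built on the heavy chain Dync1h1 with intermediate chains (Dync1i1, Dync1i2) and light intermediate chains (Dync1li1, Dync1li2), and 4 of these 5 members were higher in wild-type CSN. Dync1h1 (GRCm38 chr12:110601452-110666945, plus strand) ranged from 10259 through 13603 to 14977 in wild-type CSN and from 3988 through 5891 to 7622 in control cells of that genotype. The groups did not overlap, and the log2 fold change was 1.15 (SE 0.089, adjusted p = 1.13e-15, limma). Dync1i1, the intermediate chain enriched in neurons, was higher by 0.70 (SE 0.226, adjusted p = 0.00747, limma). Dync1i2 was higher by 0.33 and Dync1li2 by 0.27, while Dync1li1 did not pass (0.33, adjusted p = 0.0537). Both dynein-2 members, which serve cilia, did not pass.

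Of the 9 dynein light chains 1 was higher and 4 were lower, against 26.8% and 29.5% of all genes. Dynlrb1, the roadblock light chain, averaged 9420 in CSN and 13928 in control cells of wild type (log2 fold change -0.48, adjusted p = 0.00708, limma). Dynlt3, a Tctex-type light chain, averaged 6041 ± 1432 (SD, n = 16) and 8415 ± 2646 (SD, n = 14), a log2 fold change of -0.44 (adjusted p = 0.0229, limma). Without the wild-type control library of replicate 1 at 60 days Dynlt3 did not pass (-0.38, adjusted p = 0.0878). Dynll2, an LC8 light chain, was the 1 higher member at 0.37. Per kilobase of exon, Dynlrb1 was nevertheless the member with the highest mean level in both wild-type cell types, at 9336 (CSN) and 13803 (control cells). In CSN it was followed by Dynll1 (6043), Dctn3 (4398), Klc1 (3844) and Kif5c (2511). In control cells the order was Dctn3 (5989), Dynll1 (5886), Dynlt3 (3267) and Klc1 (1970).

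Dynactin had 3 of 8 members higher and 3 lower in wild-type CSN. Dctn1, its large subunit that binds dynein and microtubules (GRCm38 chr6:83165920-83200117, plus strand), ranged from 6300 through 7433 to 9520 in wild-type CSN and from 1939 through 3274 to 4094 in control cells of that genotype. The groups did not overlap, and the log2 fold change was 1.26 (SE 0.121, adjusted p = 1.33e-12, limma). Actr1a and Actr1b, which form the filament of the complex, were higher by 0.42 and 0.32. Dctn6, a subunit of the pointed end, ranged from 2012 through 2727 to 4038 in CSN and from 3917 through 5366 to 7957 in control cells. Dctn6 was lower at a log2 fold change of -0.99 (SE 0.125, adjusted p = 2.16e-09, limma) with a small overlap, and was lower in 24 of 25 animals. Dctn3 of the shoulder (-0.44) and Dctn4 of the pointed end (-0.43) were lower as well, and Dctn3 did not pass without the wild-type control library of replicate 1 at 60 days (-0.41, adjusted p = 0.0611). Kif1bp, which binds kinesins and regulates them, was lower by a log2 fold change of -1.02 (adjusted p = 1.51e-06, limma). The genes most like Dctn1 in log2 level over the 57 libraries were Rab11fip4 (Pearson r = 0.95), Dnm1 (0.95) and Kcnab2 (0.94).

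Libraries of the 2 wild-type groups did not overlap for 6 members, Kif5a, Kif1a, Dync1h1, Dctn1 and Kif26a, which were higher, and Dynlt1-ps1, which was lower. Over all genes tested, 4.38% did not overlap. Across the 25 animals, 10 members were higher in CSN in every animal and 2, Dynlt1-ps1 and Dynlt1f, were lower in every animal. Those are 14.5% and 2.90% of the members, against 4.97% and 3.68% of all 22032 genes.

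In Sod1G86R animals the same comparison called 25 of 69 members higher and 14 lower, against 24.9% and 30.6% of all genes (55.5% called). With the trimmed mean of M values (TMM) as scaling, the split was 33 higher and 9 lower, and the median over all genes moved from -0.04 to 0.13. The genotypes shared 23 members called higher and 7 called lower, or 33.3% and 10.1% of the members, against 18.1% and 19.4% of all genes. Opposite calls were found for 0 members and 0.418% of all genes. Kif5a was higher by 2.06 (adjusted p = 7.79e-14, limma), Klc2 by 1.49, Kif1a by 1.31 (adjusted p = 8.32e-14, limma), Dctn1 by 1.28 and Dync1h1 by 1.19 (adjusted p = 3.15e-15, limma). Klc1 (1.13), Kif21a (0.96), Kif3c (0.96), Kif3a (0.81), Kif1b (0.64), Kif5b (0.46) and Kif5c (0.44) were also higher. Groups did not overlap for 8 members, against 5.74% of all genes: Kif5a, Kif1a, Dync1h1, Dctn1, Klc1 and Klc2, which were higher, and Dynlt1-ps1 and Dynlt1f, which were lower. All 5 dynein-1 members were higher, Dync1i1 by 1.26 (adjusted p = 1.58e-05, limma). Actr1a was higher by 0.97 and Dctn2, the dynamitin subunit, by 0.78. Dctn6 was lower again (-0.61, adjusted p = 1.17e-04, limma), as was Dynlrb1 (-0.43).

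The second question was whether the motor genes of CSN differ between Sod1G86R and wild-type mice. Averaged over the 4 ages, 7 members were higher in Sod1G86R CSN and 7 were lower among the 60 that could be tested in CSN. The higher members were dynein and dynactin genes with the kinesin regulator Kif1bp: Dynlt3, Dync1i1, Dctn3, Dync2li1, Dctn5 and Dctn6. The lower members were kinesins of low level: Kif26a, Kif1c, Kif22, Kif24, Kif26b, Kif14 and Kif15. Over all 19093 genes tested, 12.8% were higher and 6.31% lower (19.1% called), against 23.3% of the members called. The share of members called higher, 7 of 60, was near that of all genes, and the share called lower was above it. The members' median log2 fold change was 0.03, against -0.05 over all genes. With TMM the split was 14 higher and 3 lower. The heavy chains Kif5a, Kif5b, Kif5c and Dync1h1 did not pass. No member separated the 13 Sod1G86R from the 16 wild-type libraries without overlap, against 0.0471% of all genes.

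The promoters of 5 of the members that changed are shown, 250 bases before the RefSeq start on GRCm38.p6, 5′ to 3′ on the gene's strand. They were picked from the members called between the genotypes in CSN. Any part of these promoters in the changes was not tested. Capitals mark the letters of 5 short motifs found on either strand. The palindrome of the cyclic AMP response element was searched as TGACGTCA. The motif of Sp-family factors was searched as GGGCGG, which promoter maps call the guanine-rich box. The motif of the nuclear factor Y complex was searched as CCAAT. The binding motif of the basal factor TBP was searched as TATAAA. The motif of many basic helix-loop-helix factors, the E-box, was searched as CACGTG. The windows are chrX:9662984-9663233 (minus strand) for Dynlt3, chr6:5725389-5725638 (plus strand) for Dync1i1, chr4:41723164-41723413 (minus strand) for Dctn3, chr7:122132791-122133040 (plus strand) for Dctn5 and chr12:112145958-112146207 (plus strand) for Kif26a.
Dynlt3: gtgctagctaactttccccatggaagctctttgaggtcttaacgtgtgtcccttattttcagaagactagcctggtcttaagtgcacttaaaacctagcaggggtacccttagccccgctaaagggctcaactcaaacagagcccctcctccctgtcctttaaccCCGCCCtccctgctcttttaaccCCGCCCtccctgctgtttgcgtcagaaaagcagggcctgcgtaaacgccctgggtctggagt
Dync1i1: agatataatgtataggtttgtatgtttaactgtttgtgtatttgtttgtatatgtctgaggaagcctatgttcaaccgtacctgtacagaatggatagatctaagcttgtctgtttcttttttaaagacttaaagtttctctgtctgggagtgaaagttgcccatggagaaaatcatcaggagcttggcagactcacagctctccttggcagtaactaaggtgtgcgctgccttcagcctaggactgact
Dctn3: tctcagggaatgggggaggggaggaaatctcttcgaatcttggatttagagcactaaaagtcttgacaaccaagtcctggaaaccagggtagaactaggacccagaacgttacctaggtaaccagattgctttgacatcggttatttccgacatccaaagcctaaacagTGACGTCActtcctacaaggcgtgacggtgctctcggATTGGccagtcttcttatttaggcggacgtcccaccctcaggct
Dctn5: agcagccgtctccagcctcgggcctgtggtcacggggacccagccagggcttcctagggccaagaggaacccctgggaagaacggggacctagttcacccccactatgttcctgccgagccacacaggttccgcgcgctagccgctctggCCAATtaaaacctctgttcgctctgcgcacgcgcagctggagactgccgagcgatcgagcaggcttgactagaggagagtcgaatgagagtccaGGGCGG
Kif26a: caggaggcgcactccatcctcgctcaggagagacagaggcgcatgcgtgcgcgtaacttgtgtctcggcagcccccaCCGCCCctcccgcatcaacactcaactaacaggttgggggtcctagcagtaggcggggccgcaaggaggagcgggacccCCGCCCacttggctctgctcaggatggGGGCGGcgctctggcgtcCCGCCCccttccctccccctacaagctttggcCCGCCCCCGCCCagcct

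The window of Kif26a, the member that fell most, holds 6 GGGCGG matches, that of Dynlt3 holds 2 and that of Dync1i1 none of the 5 motifs. The Dctn3 window holds the response element palindrome, to which factors of the CREB and CREB3 families can bind, and a CCAAT match on the other strand. A window was given for 51 members and for 27025 genes in all. Those 27025 genes were not limited to the level that members had to reach. The shares below therefore set unlike sets of genes side by side, and enrichment was not tested. The palindrome was in 4 member windows (Dctn3, Kif17, Kif5c and Klc1), or 7.84%, against 1.77% of all windows. Of these 4 genes only Dctn3 passed between the genotypes in CSN, mean of ages. The guanine-rich box was in 64.7% of member windows and 35.4% of all, the nuclear factor Y motif in 47.1% and 37.5%, the TBP motif in 7.84% and 14.3%, and the E-box in 3.92% and 6.86%. These matches describe letters in the windows and show no binding.

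Among the dynein members, Dynlt3 (ENSMUSG00000031176, GRCm38 chrX:9654267-9663003, minus strand) ranged from 4931 through 9709 to 16708 in Sod1G86R CSN and from 3966 through 6056 to 9057 in wild-type CSN. The groups overlapped, but 12 of 13 Sod1G86R libraries lay above the wild-type mean. Dynlt3 rose by 0.74 on the log2 scale (SE 0.136, adjusted p = 5.68e-04, limma). Dync1i1 (ENSMUSG00000029757, GRCm38 chr6:5725639-6028039, plus strand) ranged from 5734 through 10832 to 15843 in Sod1G86R CSN and from 4920 through 6790 to 9781 in wild-type CSN. It rose by 0.71 (SE 0.128, adjusted p = 4.83e-04, limma), again with 12 of 13 libraries above the wild-type mean. Dync1i1 made up 81.6% ± 5.0 (SD, n = 13) of the intermediate-chain reads per kilobase in Sod1G86R CSN and 72.2% ± 6.1 (SD, n = 16) in wild-type CSN. The other intermediate chain, Dync1i2, averaged 5648 and 6081 and did not pass (-0.13, adjusted p = 0.232). Dync2li1, a dynein-2 light intermediate chain, averaged 1122 ± 342 (SD, n = 13) and 763 ± 236 (SD, n = 16) and rose by 0.54 (adjusted p = 0.0224, limma). That call was lost without the Sod1G86R CSN library of replicate 9 at 105 days (0.49, adjusted p = 0.0699) or of replicate 6 at 30 days (0.47, adjusted p = 0.0588). The heavy chain Dync1h1 averaged 15104 ± 2411 (SD, n = 13) and 12999 ± 1546 (SD, n = 16), a log2 fold change of 0.20 that did not pass (adjusted p = 0.0893).

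Dynactin had 3 of 8 members higher and none lower, with log2 fold changes above 0 for 7 of 8 and a median of 0.25. Of all genes 12.8% were higher and 6.31% lower. Dctn3 (ENSMUSG00000028447, GRCm38 chr4:41714798-41723170, minus strand) ranged from 4018 through 7057 to 12370 in Sod1G86R CSN and from 2167 through 4323 to 7091 in wild-type CSN. It rose by 0.70 (SE 0.169, adjusted p = 0.00494, limma), with 11 of 13 libraries above the wild-type mean. Dctn5 of the pointed end (ENSMUSG00000030868, GRCm38 chr7:122133041-122149044, plus strand) ranged from 3241 through 4942 to 7619 and from 2488 through 3823 to 5178, and rose by 0.47 (SE 0.109, adjusted p = 0.00341, limma). Its partner Dctn6 averaged 3769 ± 925 (SD, n = 13) and 2791 ± 582 (SD, n = 16) and rose by 0.44 (SE 0.104, adjusted p = 0.00386, limma). The groups overlapped for all 3 of these subunits. Dctn1 averaged 7679 ± 1057 (SD, n = 13) and 7757 ± 984 (SD, n = 16), a log2 fold change of -0.01 with a normal 95% interval of -0.18 to 0.16 (adjusted p = 0.954). Dctn2 (0.25, adjusted p = 0.0660) and Dctn4 (0.24, adjusted p = 0.0711) did not pass.

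Of the kinesin-1 heavy chains, Klc1, Kif1a, Kif1b and Kif3a, none passed as higher or lower. Kif5a averaged 15533 ± 3911 (SD, n = 13) in Sod1G86R CSN and 14927 ± 4478 (SD, n = 16) in wild-type CSN, a log2 fold change of 0.04 with a normal 95% interval of -0.22 to 0.31 (adjusted p = 0.838). The log2 fold changes of Kif5c (0.29, adjusted p = 0.0687), Kif1b (0.15), Kif3a (0.13), Kif5b (0.09), Kif1a (0.06, adjusted p = 0.623) and Klc1 (-0.04) were likewise not past the threshold. Kif5c passed as higher without Sod1G86R CSN replicate 3 at 60 days (0.31, adjusted p = 0.0458), wild-type CSN replicate 7 at 60 days (0.34, adjusted p = 0.0135) or wild-type CSN replicate 9 at 90 days (0.32, adjusted p = 0.0391). With quantile normalisation the sign of Kif5a, Kif5b, Kif5c, Kif1a, Kif1b, Kif3a and Dync1h1 turned, and Kif1a then passed as lower (-0.26, adjusted p = 0.0372). Kif1bp, the kinesin regulator, averaged 4792 ± 1008 (SD, n = 13) and 3631 ± 576 (SD, n = 16) and rose by 0.41 (SE 0.103, adjusted p = 0.00635, limma).

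The 7 members that fell all had mean levels below 346 in both CSN groups, outside the level set for naming genes, and are named after their values were seen. Kif26a (ENSMUSG00000021294, GRCm38 chr12:112146208-112181747, plus strand) ranged from 41.9 through 84.4 to 181.2 in Sod1G86R CSN and from 107.8 through 141.1 to 320.8 in wild-type CSN. It fell by 0.66 on the log2 scale (log2 fold change -0.66, SE 0.138, adjusted p = 0.00159, limma), and 2 of 13 Sod1G86R libraries lay above the wild-type mean. Kif1c, a kinesin-3 motor of the Golgi and of dense-core vesicles, averaged 134 ± 51.3 (SD, n = 13) and 203 ± 51.0 (SD, n = 16), a log2 fold change of -0.59 (adjusted p = 0.00669, limma). Kif22, Kif14 and Kif15, which act on mitotic chromosomes and spindles, had log2 fold changes of -0.48, -0.43 and -0.40. The centriolar kinesin Kif24 (-0.47) and Kif26b (-0.46) also fell. Kif26b, Kif14, Kif15 and Kif24 had adjusted p values of 0.0430 to 0.0482, and lost their calls in 21, 20, 18 and 16 of the 29 fits that each left out 1 library.

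**Figure D4:**
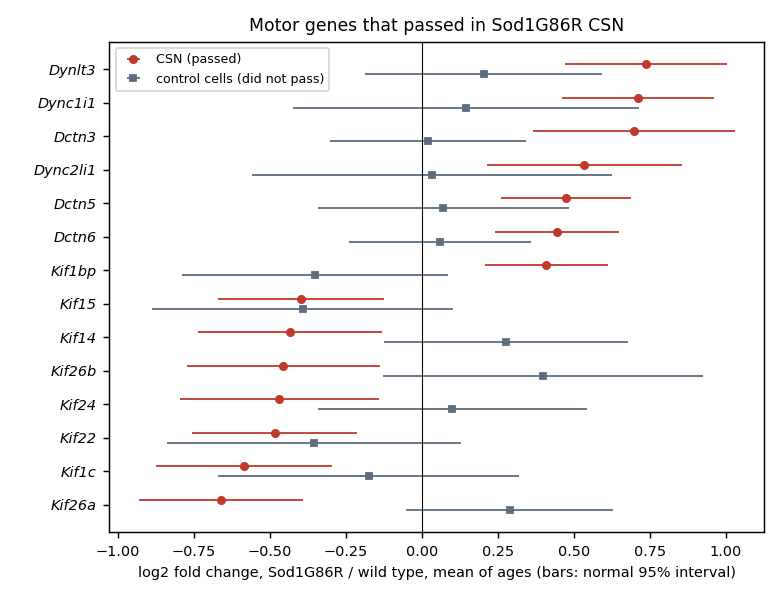
Log2 fold change in Sod1G86R against wild type, mean of the ages, for the 14 members that passed in CSN, shown in CSN (13 against 16 libraries) and in control cells (14 against 14). Points are limma estimates and bars are normal 95% intervals. The CSN estimates run from -0.66 for Kif26a to 0.74 for Dynlt3, and none of the 14 passed in control cells.

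Other library measures moved with the genotype. The mitochondrial share was lower in Sod1G86R CSN, at 2.63% to 8.31% against 4.56% to 14.55% in wild type. With that share as a covariate, no member was called by limma. The log2 fold change was then 0.47 for Dynlt3 (adjusted p = 0.226), 0.43 for Dync1i1 (adjusted p = 0.223), 0.24 for Dctn3 (adjusted p = 0.641) and -0.47 for Kif26a (adjusted p = 0.277). Over all genes the same covariate left 25 calls of 3643. With the number of detected genes as covariate 6 members were higher and 2 lower. The summed level of the 6 oligodendrocyte markers ran from 4740.61 to 85652.3 in Sod1G86R CSN and from 882.36 to 283283 in wild-type CSN, with medians of 18743 and 54375. None of these markers passed, and their median log2 fold change was -0.88. Of 6 microglial markers 2 were lower in Sod1G86R CSN (summed 299.191 to 6253.97 against 1147.58 to 7559.91), as were 2 of 3 oligodendrocyte precursor markers. The part of these cells in the members' differences was not tested. Of 10 deep-layer markers 4 were higher. Others had lower means in Sod1G86R than in wild-type CSN: Bcl11b (9154 against 10678), Fezf2 (7204 against 7569) and Foxo1 (79.4 against 103.2). Beside the mitotic kinesins that fell, the mean log2 level of the dividing-cell markers was lower as well, at 6.44 ± 0.23 (SD, n = 13) against 6.68 ± 0.23 (SD, n = 16). Of the 5 of these markers that could be tested 0 were called by limma, and their median log2 fold change was -0.30.

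At single ages the calls were few. The 928 genes called at 90 days ran from 4 to 1985 when 1 library was left out. At 90 days Dynlt3, Dync1i1 and Dctn5 were higher and Kif26a lower, 4 of 60 members, against 3.48% higher and 1.38% lower among all genes (4.86% called). The Dynlt3 values at 90 days were 12224, 12736, 16708 and 7799 in Sod1G86R CSN and 6434, 6927, 4847 and 5100 in wild-type CSN, so the groups did not overlap. Dync1i1 was at 15414, 10828, 15843 and 9001 in Sod1G86R CSN and at 8372, 7988, 5851 and 5304 in wild-type CSN, also without overlap. Kif26a was at 53.5, 41.9, 84.4 and 104.9 in Sod1G86R CSN and at 203.8, 136.4, 320.8 and 220.2 in wild-type CSN, with every Sod1G86R library below every wild-type one. For Dctn5 the lowest Sod1G86R library, at 4118, lay below the highest wild-type library, at 4304. The log2 fold changes at 90 days were 1.05 for Dynlt3 (SE 0.252, adjusted p = 0.0236, limma), 0.88 for Dync1i1 (SE 0.237, adjusted p = 0.0340, limma), 0.80 for Dctn5 (SE 0.202, adjusted p = 0.0268, limma) and -1.26 for Kif26a (SE 0.256, adjusted p = 0.0225, limma). None of the 4 was called without Sod1G86R CSN replicate 3, 5 or 6 or without wild-type CSN replicate 7 or 9 of that age. With quantile normalisation 2 members were higher and 2 lower.

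At the other ages no member was called by limma. The share of all genes called was 0.0157% at 30 days, 0.0314% at 60 days and 0.021% at 105 days, and 12, 2 and 7 members had an unadjusted p under 0.05. Those are 20%, 3.33% and 11.7% of the members, against 13.5%, 7.86% and 8.02% of all genes. DESeq2 called 2 members at 30 days, while edgeR called none at those ages and DESeq2 none at 60 or 105 days. The means by age are a description, since the members given were chosen by their mean over the same ages. Dynlt3 averaged 10117 ± 3808 (SD, n = 3), 7098 ± 1972 (SD, n = 4), 12367 ± 3646 (SD, n = 4) and 11996 ± 2517 (SD, n = 2) in Sod1G86R CSN at 30, 60, 90 and 105 days. In wild-type CSN it averaged 5276 ± 921, 5859 ± 2246, 5827 ± 1011 and 7203 ± 808 (SD, n = 4 each). The Sod1G86R mean was above the wild-type mean at each age, by the least at 60 days. Dync1i1 averaged 12890 ± 2053, 8620 ± 2390, 12771 ± 3387 and 12132 ± 549 in Sod1G86R CSN and 7100 ± 1921, 6175 ± 1418, 6879 ± 1527 and 8051 ± 1913 in wild-type CSN. Dctn3 averaged 8088 ± 3862, 6376 ± 2980, 7359 ± 1639 and 8365 ± 1907 in Sod1G86R CSN and 4180 ± 1152, 4009 ± 1371, 4965 ± 1682 and 5178 ± 1160 in wild-type CSN. Both genes had the higher mean in Sod1G86R at every age. Kif26a averaged 64.9 ± 1.03, 134.9 ± 49.3, 71.2 ± 28.8 and 94.96 ± 2.55 in Sod1G86R CSN and 132.5 ± 12.7, 176.5 ± 47.9, 220.3 ± 76.2 and 125.0 ± 16.0 in wild-type CSN.

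**Figure D5:**
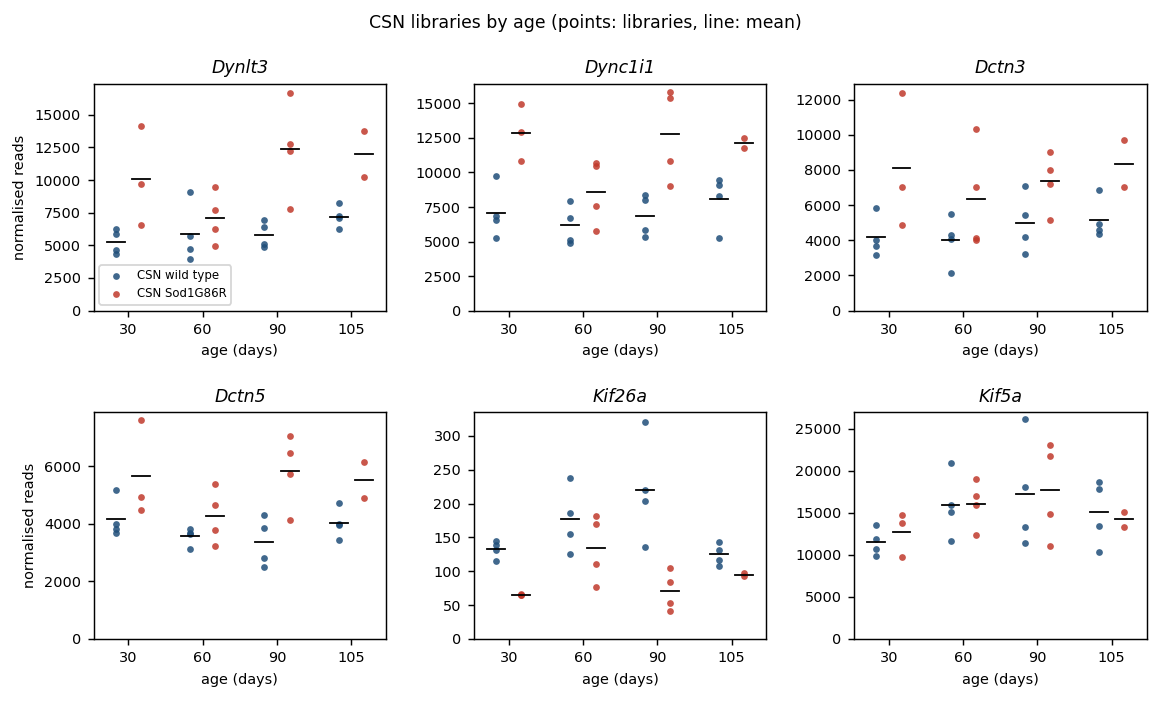
Normalised read count of Dynlt3, Dync1i1, Dctn3, Dctn5, Kif26a and Kif5a in CSN libraries at 30, 60, 90 and 105 days, for wild type and Sod1G86R. Points are libraries and short horizontal lines are group means. At each age the Sod1G86R mean of Dynlt3, Dync1i1, Dctn3 and Dctn5 lies above the wild-type mean and that of Kif26a below it, while Kif5a overlaps throughout.

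Kif5a averaged 12760 ± 2615, 16081 ± 2779, 17718 ± 5725 and 14224 ± 1257 in Sod1G86R CSN at the 4 ages and 11506 ± 1616, 15910 ± 3880, 17224 ± 6571 and 15069 ± 3931 in wild-type CSN. The genotypes overlapped at each age. Whether the genotype effect changed with age was tested by an interaction of genotype and age in CSN. By limma 0 of 60 members were called, none had an unadjusted p under 0.05, and 0 of 19093 genes were called. The smallest p among the members was 0.0552, for Kif26a (adjusted p = 1.0).

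Age alone gave no called member in wild-type CSN between 30 and 105 days, by limma, edgeR or DESeq2, with 8 members (13.3%) and 6.22% of all genes at an unadjusted p under 0.05, and 0 of 19093 genes called. The smallest p was that of Kif5b. Its values were 5284, 6162, 5244 and 5717 at 30 days and 8379, 10508, 7725 and 10952 at 105 days. The ages did not overlap, but the log2 fold change of 0.73 did not pass (adjusted p = 0.517, limma). Klc2 (-0.66) and the mitotic kinesin Kif14 (-0.84) followed, each with adjusted p = 0.654. In wild-type control cells 0 of 67 members were called by limma, edgeR or DESeq2, against 0.00955% of all genes, and 8 (11.9%) had an unadjusted p under 0.05, against 12.5% of all genes. Dctn5 was at 4799, 5089, 5577 and 5937 at 30 days and at 3028, 5142, 2251 and 900 at 105 days (log2 fold change -1.15, adjusted p = 0.217, limma). Only the library of replicate 12 at 105 days lay within the range of the younger group. Actr1a averaged 7462 ± 1612 and 3796 ± 2224 (SD, n = 4 each) at these ages (log2 fold change -1.12, adjusted p = 0.249, limma). Without that replicate Dctn5 (-1.52, adjusted p = 0.0270) and Actr1a (-1.47, adjusted p = 0.0396) passed as lower.

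The third question was whether the genotype changed the motor genes of the control cells. Averaged over the ages, 0 of 67 members were called by limma, edgeR or DESeq2, against 0.0716% of all 20944 genes, and 4 members (5.97%) had an unadjusted p under 0.05, against 11.7% of all genes. Dctn4 had the smallest p, with an average of 1803 ± 531 (SD, n = 14) in Sod1G86R and 2534 ± 734 (SD, n = 14) in wild type (log2 fold change -0.50, adjusted p = 0.282, limma). Kif2c, a mitotic depolymerase (-0.59, adjusted p = 0.323), and Actr1a (-0.46, adjusted p = 0.413) followed. The log2 fold changes of Kif5a (0.22, adjusted p = 0.660), Kif5c (0.28), Dync1h1 (0.16), Dync1i1 (0.15), Kif3a (-0.01) and Dctn1 (-0.03) did not pass. The mean log2 level of markers of inhibitory (GABAergic) neurons was 8.96 ± 1.06 (SD, n = 14) in Sod1G86R and 7.82 ± 1.21 (SD, n = 14) in wild type. That of the astrocyte, oligodendrocyte and microglial markers ran from 10.88 to 14.42 in wild type, with 14.24 and 14.42 in the 2 libraries at 60 days. The part of these cells in the members' values was not tested. No member was called at any single age by limma. Of all genes 1.4% were called at 60 days and 0.00955% at each other age. The 293 genes called at 60 days rest on 3 against 2 libraries. Their number was 1 without wild-type control replicate 1 and 9 without replicate 2 of that age, and at most 584, without wild-type control replicate 12 at 105 days. Unadjusted p values under 0.05 were found for 8, 10, 0 and 5 members at 30, 60, 90 and 105 days, or 11.9%, 14.9%, 0% and 7.46%, against 5.25%, 24.1%, 2.81% and 4.45% of all genes. DESeq2 called 1 member at 60 days.

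The difference of the genotype effect between CSN and control cells was tested in 1 model of all 57 libraries, with 1 of 69 members called higher and 1 lower, against 3.84% and 2.42% of all genes (6.26% called). The count over all genes, 1380, moved with single libraries. It was 238 without wild-type control replicate 1 at 60 days, 329 without Sod1G86R CSN replicate 13 at 105 days, 330 without Sod1G86R CSN replicate 6 at 30 days and 3023 without wild-type control replicate 3 at 90 days. Kif26a had a difference of -0.95 on the log2 scale (SE 0.221, adjusted p = 0.0147, limma). Its level in Sod1G86R was below that in wild type in CSN, while control cells averaged 45.9 ± 17.2 (SD, n = 14) in Sod1G86R and 31.8 ± 19.1 (SD, n = 14) in wild type. Dctn4 had a difference of 0.74 (SE 0.196, adjusted p = 0.0251, limma), with 2208 ± 417 (SD, n = 13) against 1855 ± 298 (SD, n = 16) in CSN and the opposite order in control cells. The Dctn4 call was lost without Sod1G86R CSN replicate 13 at 105 days (adjusted p = 0.0540), Sod1G86R CSN replicate 6 at 30 days (0.0533) or wild-type control replicate 1 at 60 days (0.0764). The GABAergic marker level of the control cells also moved with the genotype, and its part in these differences was not tested. Kif1bp (0.76, adjusted p = 0.0540) and Dctn2 (0.63, adjusted p = 0.0530) did not pass, and did pass with the animal as a block (adjusted p = 0.0490 and 0.0470). For Dynlt3 and Dync1i1 the difference was not past the threshold (Dync1i1 0.57, adjusted p = 0.269), so their rise was not shown to differ between the cell types.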

How the data were processed

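Total RNA of mouse brain was measured in 57 libraries. Per the labels' protocols, RNA was extracted with Trizol, amplified with the SMART-Seq v4 kit over 11 cycles, and made into Nextera XT libraries over 12 cycles. Sequencing was paired-end, 50 bases, on the HiSeq 4000 system. Strand is not marked by this kit. Per the series' design text, reads were aligned to GRCm38 with STAR 2.7.0 and counted by STAR on Ensembl 87. In the submitters' processing notes, edgeR and mm10 are listed with no role given.

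The deposited table holds normalised counts, a signal value per gene, whose method of normalisation was not stated in any source used here. Whole reads were recovered by dividing each library by its step (100% of values whole within 0.001), which gave 22.2 to 64.2 M reads per library. No molecular identifiers were used, so a read need not be a separate molecule.

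A fit kept the genes that reached 34.6, which is 1 ppm of the median column total, in 3 of its libraries. Log2(value + 34.6) was fitted with limma 3.58.1 (R 4.3.3; trended, robust prior; 1 coefficient per group) over all 57 libraries for the cell types and the difference of genotype effects, and over CSN or control cells alone for genotype and age. Adjusted p values are Benjamini-Hochberg over all genes of a fit, with a threshold of 0.05. Log2 fold changes understate changes of low genes. Promoters are those of RefSeq, and other coordinates those of GENCODE M21 on GRCm38. Python 3.11.15, pandas 2.3.3 and matplotlib 3.10.9 made the tables and plots. Simulated 2-fold changes were placed only in genes averaging 346 or more, with libraries drawn independently. The CSN fit over the mean of ages recovered 98% of these changes, the control-cell fit 59% and the difference between cell types 48%. These fits held 19093, 20944 and 22032 genes. Recovery at lower levels or of smaller changes was not tested.

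Named in every comparison were Kif5a, Kif5b, Kif5c, Kif1a, Kif1b, Kif3a, Klc1, Dync1h1, Dync1i1 and Dctn1. Also named were, the members that passed and averaged 346 or more in their higher group, by the 10 largest rises and falls, or the 3 smallest p values where none passed. Other named members were chosen after their values were seen. The members and gene lists were chosen with earlier results of these data known. Alternatives were another pseudocount, filter or scaling (quantile, TMM), edgeR 4.0.16 and DESeq2 1.42.0 on the recovered reads, covariates, blocks and leaving out each library. Libraries of 1 animal in both cell types were paired by the stem of their titles. Their residuals correlated from -0.357 to 0.322 over 25 pairs (median 0.0475, over 0.1 in 8), and the main fits took them as independent. The animal is the replicate. In the fits of 1 cell type, p values measure the spread between animals. In the fit of all 57 libraries they measure the spread between libraries, which came from 32 animals.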

Additional observations from a re-analysis of the deposited data

Results flagged for a closer look

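The genotype effect of Kif26a, an atypical kinesin, differed between the cell types by -0.95 on the log2 scale, and that of Dctn4, a dynactin pointed-end subunit, by 0.74, both by a test of the difference itself. The Kif26a level in control cells was near the 34.6 added before the log. The Dctn4 call was lost in some fits that left out 1 library (adjusted p = 0.0533 to 0.0764, limma).

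Among 26 members, 286 groups of 4 libraries were checked for a library that stands apart, and 15 were found, about the 1 in 20 that chance gives. In wild-type control cells at 105 days, replicate 9 was lowest for Kif5c (4508, nearest other 14291) and Kif1a (3815, nearest other 8790), and replicate 13 was highest for Kif5b (6895, nearest other 4978). In wild-type control cells at 90 days, replicate 6 was lowest for Kif1a (6950, nearest other 9305) and highest for Dynlrb1 (21849, nearest other 13720), and replicate 3 was lowest for Dynlt3 (3436, nearest other 7887). In Sod1G86R control cells, Dync2li1 was highest in replicate 12 at 105 days (1750, nearest other 732) and in replicate 8 at 90 days (2034, nearest other 1245). Replicate 8 was also highest for Kif1bp (12271, nearest other 6165).

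In wild-type CSN, replicate 5 at 30 days was highest for the mitotic depolymerase Kif2c (278.3, nearest other 31.0) and for the light chain Klc4 (413, nearest other 288). Replicate 13 at 105 days was highest for Dynlrb1 (15257, nearest other 8646). In Sod1G86R CSN at 60 days, replicate 3 was lowest for Actr1a (5867, nearest other 6796) and replicate 5 highest for Kif3a (9640, nearest other 8075). At 90 days, replicate 5 was lowest for Klc2 (507, nearest other 568).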

How the results depend on the processing

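Of the results recomputed under settings other than leaving out a library, 1058 kept their direction and side of the threshold, 32 lost a call, 7 gained one and 25 changed sign. The sign changes were of values that had not passed in the main fit. They included Kif5c (0.29) and Dync1h1 (0.20) in CSN, mean of ages. Kif1a passed as lower after its sign changed with quantile normalisation. For the genotype effect in CSN (mean of ages), quantile normalisation gave Kif5a -0.24, Kif5b -0.17, Kif5c -0.026, Kif1a -0.26, Kif1b -0.16, Kif3a -0.13 and Dync1h1 -0.079, and TMM gave Klc1 0.029 and Dctn1 0.060. In control cells Kif3a became 0.10 with quantile normalisation, 0.077 with the mitochondrial covariate, 0.12 with the detected-gene covariate and 0.0011 with DESeq2, and Dctn1 became 0.079 with quantile normalisation and 0.025 with DESeq2. For the difference between cell types, TMM gave Kif5b 0.030, Kif1a 0.12 and Kif1b 0.084, edgeR gave Kif1a 0.038, DESeq2 gave Dctn1 -0.023, and quantile normalisation gave Kif5c -0.36, Kif3a -0.22, Klc1 -0.23, Dync1h1 -0.35 and Dctn1 -0.31. The cause was not tested.

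The count of called members for that difference, 2, was 4 with a pseudocount of 0.25 times, TMM, edgeR or the animal as replicate block, 1 without a filter (more genes tested) or with quantile normalisation, and 7 with DESeq2. For the genotype effect in CSN, 14 members became 9 without a filter, 0 with the mitochondrial covariate and 8 with the detected-gene covariate. At 90 days 4 became 0 without a filter and 0 with the mitochondrial covariate. DESeq2 called 2 at 30 days in CSN, and quantile normalisation 1 and DESeq2 1 in control cells at 60 days. With the replicate number within age as a block, 11 members were higher and 7 lower in CSN, 18 against 14 called. Residuals of same-numbered CSN libraries of the 2 genotypes correlated from -0.060 to 0.53 over 9 pairs (median 0.27, over 0.1 in 5), and the block's consensus correlation was 0.269. In control cells 2 of 7 pairs were over 0.1. Of the libraries with a number in both genotypes, 10 of 18 in CSN and 4 of 14 in control cells correlated best with their own number. The labels do not say what a number marks and not every pair was over 0.1, so the numbers were not taken as a pairing.

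Leaving out each library gave 33 to 41 called members for CSN against control cells in wild type (24 to 29 higher, 8 to 14 lower) and 34 to 41 in Sod1G86R (23 to 27 higher, 11 to 16 lower). It gave 1 to 7 for the difference (0 to 4 higher, 1 to 3 lower), 9 to 18 for the genotype effect in CSN (6 to 12 higher, 2 to 7 lower), 0 to 6 at 90 days in CSN (0 to 5 higher, 0 to 2 lower) and 0 to 2 for age in control cells (0 to 2 lower). The count of 9 came without Sod1G86R CSN replicate 13 or 9 at 105 days or replicate 6 at 30 days, and that of 7 without wild-type control replicate 3 at 90 days. The values that changed sign ran from -0.037 to 0.11 for Kif5c, -0.089 to 0.044 for Kif1a and -0.085 to 0.11 for Dctn1 in the difference, from -0.036 to 0.015 for Dctn1 in CSN, and from -0.065 to 0.044 for Kif3a, -0.058 to 0.30 for Dync1i1 and -0.12 to 0.077 for Dctn1 in control cells. Groups of 2 to 4 libraries limit the single ages.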

Other observations

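Genes that work with the motors but are not members were counted from 2 lists. Of 52 measured adaptors and regulators, 33 were higher and 11 lower in wild-type CSN than in control cells by limma, with a median log2 fold change of 0.54. All genes had 26.8% higher and 29.5% lower (56.3% called), with a median of -0.03. The higher ones included the kinesin-1 cargo adaptor Clstn3 (1.64), the mitochondrial GTPase Rhot2 (1.57) and the JNK scaffold Mapk8ip3 (1.30), and the lower ones Nde1 (-2.40) and Fez1 (-2.33). Of 28 genes of the microtubule track, 15 were higher and 8 lower (median 0.74), with the neuronal tubulin Tubb3 at 2.46, Map1a at 1.96 and the tubulin Tuba8 at -4.30.

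In Sod1G86R against wild-type CSN, mean of ages, 11 of 51 adaptors and regulators were higher and 4 lower (median 0.01), and 12 of 28 track genes were higher and 0 lower (median 0.17), by limma. Of all genes 12.8% were higher and 6.31% lower (median -0.05). Actr10, the dynactin subunit Arp11 that caps the pointed end beside Dctn5 and Dctn6, averaged 7785 ± 1729 (SD, n = 13) and 5724 ± 1225 (SD, n = 16) and rose by 0.46 (adjusted p = 0.00662, limma). The tubulins Tuba1c (0.87), Tuba4a (0.82), Tubb5 (0.63) and Tuba1a (0.58) and the stathmins Stmn3 (0.62), Stmn1 (0.37) and Stmn2 (0.34) rose as well. Mapk8ip1 (-0.54), Map7 (-0.46), Nin (-0.41) and Hook1 (-0.39) fell. In control cells no gene of either list was called by limma. The genotype effect differed between the cell types for Fez1 (1.07), Fez2 (0.81), Capzb (0.91) and Tubb4a (1.31) by limma. Of all genes 6.26% were called for that difference. The all-gene count ran from 238 to 3023 when 1 library was left out. Oligodendrocyte marker levels varied widely among the control libraries, and their part in these differences was not tested.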
